A study of Mus musculus with 5 samples.

Results

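The Smad transducers and the Id genes carry signals of the TGFβ family to the nucleus, and 10 of them were followed here in hematopoietic stem cells (HSCs) that lack Atxn1L: Smad1 to Smad7 and Id1, Id2 and Id3. They were taken by name, with every probe set that the platform's annotation gives to exactly 1 of them, which yielded 22 of the 45037 probe sets tested, for 10 of 18193 genes. No probe set annotated to several genes named a member, and each of the 22 carried the same symbol in the RefSeq gene table.

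HSCs were purified from Atxn1L null mice and from WT mice, all of the C57Bl/6 strain and 6 to 8 weeks old by the labels. The cells were lineage-negative, Sca-1+, c-Kit+ and CD150+ and lay in the side population, which excludes Hoechst dye. The labels and methods name a null allele and no Cre driver. RNA of HSCs pooled for each chip was amplified, labelled with biotin and hybridised to Affymetrix mouse arrays, 2 with Atxn1L null and 3 with WT RNA. The sources used here do not give how many mice stood behind a pool.

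Ligands of the TGFβ family bind pairs of receptor kinases at the cell surface, and the activated receptor phosphorylates a receptor-regulated Smad. Smad2 and Smad3 serve TGFβ and activin, Smad1 and Smad5 serve bone morphogenetic proteins (BMPs), Smad4 is the shared partner that enters the nucleus with either, and Smad6 and Smad7 are inhibitory Smads. Id genes are classical targets of BMP signaling, and their proteins, which have a helix-loop-helix but no DNA-binding region, hold E proteins away from DNA. TGFβ is known as a brake on the cycling of HSCs.

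All values are log2 GCRMA values, in which a difference of 1 is a doubling of signal. Levels of different probe sets are not compared, since each binds with its own strength, and a probe set is called dim where its mean was under 5 in both genotypes. By this mark 11 of the 22 probe sets were dim, with means of 2.01 to 4.73 in the genotype that read higher, and the other 11 covered Smad1, Smad2, Smad3, Smad4, Smad5, Smad7 and Id3. Smad6, Id1 and Id2 were read by dim probe sets only, and 28.7% of all probe sets were not dim. In pooled cells, fewer cells of a type and less RNA per cell cannot be told apart.

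The targeted gene, Atxn1l, read lower in Atxn1L null pools on 2 of 3 probe sets. The one with the highest mean read 3.08 and 3.99 in Atxn1L null pools, against 6.80, 6.69 and 4.98 in WT pools. Of 6 measured HSC markers 5 were not dim, and each of the 6 read lower on average in null pools, with a median difference of -0.21. Procr read 13.23 to 13.54 in null and 13.54 to 13.64 in WT pools. Meis1 read 11.56 and 11.23 in null and 11.71 to 11.93 in WT pools. Its difference of -0.46 was the only 1 of the 6 with an unadjusted limma p of at most 0.05. Slamf1, which encodes CD150, was dim with means of 3.89 in null and 3.92 in WT pools. The summed signal of the HSC list on the linear scale was 15000 and 16300 in null and 17400 to 19400 in WT pools, so that the genotypes did not overlap. Of 35 measured markers of other cell types 13 were not dim, among them 5 of the 6 granulocyte and monocyte genes. The summed linear signal of that list was 24100 and 41300 in null and 21800 to 40600 in WT pools. Of the 35 only 1 passed the criterion used below, the progenitor gene Cd27. Its probe set was dim, with means of 4.02 in null and 3.41 in WT pools. The excess of the 3' over the 5' control signal of Gapdh was 7.33 and 7.21 in null and 5.89 to 6.02 in WT pools, a sign of RNA or amplification quality that moved with genotype. The part of cell composition or of RNA quality in the values below was not tested.

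None of the 22 Smad and Id probe sets passed the criterion in Atxn1L null against WT HSCs. A probe set was called at an unadjusted limma p of at most 0.05 with a fold of at least 1.5, and 2.38% of all probe sets were called. At p of at most 0.05 alone, 3 of the 22 were left (13.6%, against 5.59% of all probe sets), which were higher for Smad2 and Smad4 and lower for Smad6. These shares are not matched for brightness, since 11 of the 22 were not dim, against 28.7% of all probe sets. The unadjusted limma p of Smad6 was 0.059 after renewed quantile normalization, and that of Smad4 was 0.052 after median centring. That of Smad2 stayed under 0.05 in both settings. After Benjamini-Hochberg adjustment over all probe sets 0 of the 22 were under 0.05, where 0.00222% of all probe sets were, and their lowest limma adjusted p was 0.557. The largest fold was 1.52, that of Smad1, and it was the only 1 of the 22 to reach the required size.

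**Figure D1:**
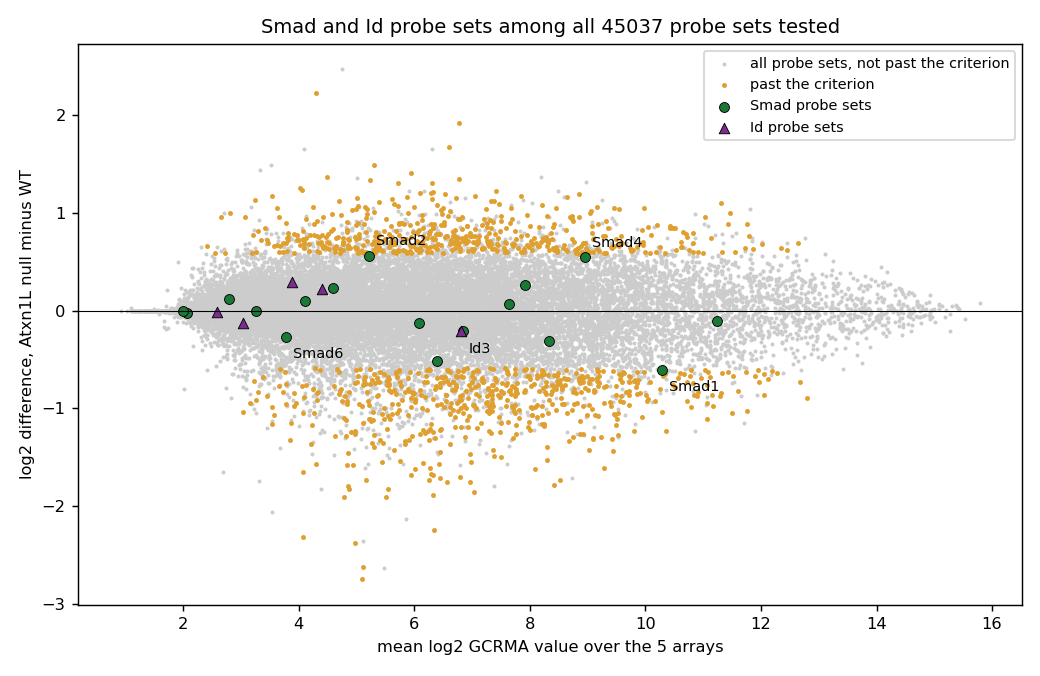
Log2 difference, Atxn1L null minus WT (vertical axis), against the mean log2 GCRMA value of the 5 arrays (horizontal axis) for 45037 probe sets, with Smad probe sets as circles and Id probe sets as triangles. None of the 22 is past the criterion, and Smad1, Smad2 and Smad4 lie at or close to its 1.5-fold edge.

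The differences of the members went both ways, 9 of them above and 13 below 0. Their median was -0.006, beside -0.003 for all probe sets. For the 11 members that were not dim it was -0.13, with 4 above and 7 below 0, beside 0.009 for all such probe sets. For 9 of the 22 (40.9%) the null values all lay on the same side of the WT values, 4 of them higher and 5 lower in null pools, where 14.2% of all probe sets were so separated. Over all probe sets the share was higher for those that were not dim, and among the members it was not. Of the 11 members that were not dim, 4 were separated (36.4%, against 33.0% of all such probe sets), namely a probe set each of Smad1, Smad2, Smad4 and Smad5. That of Smad2 counted as not dim only through its null mean of 5.55, its WT mean being 4.99. Of the 11 dim members 5 were separated (45.5%, against 6.67% of all dim probe sets), and the gaps between the genotypes were small, at 0.00072 to 0.12.

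**Figure D2:**
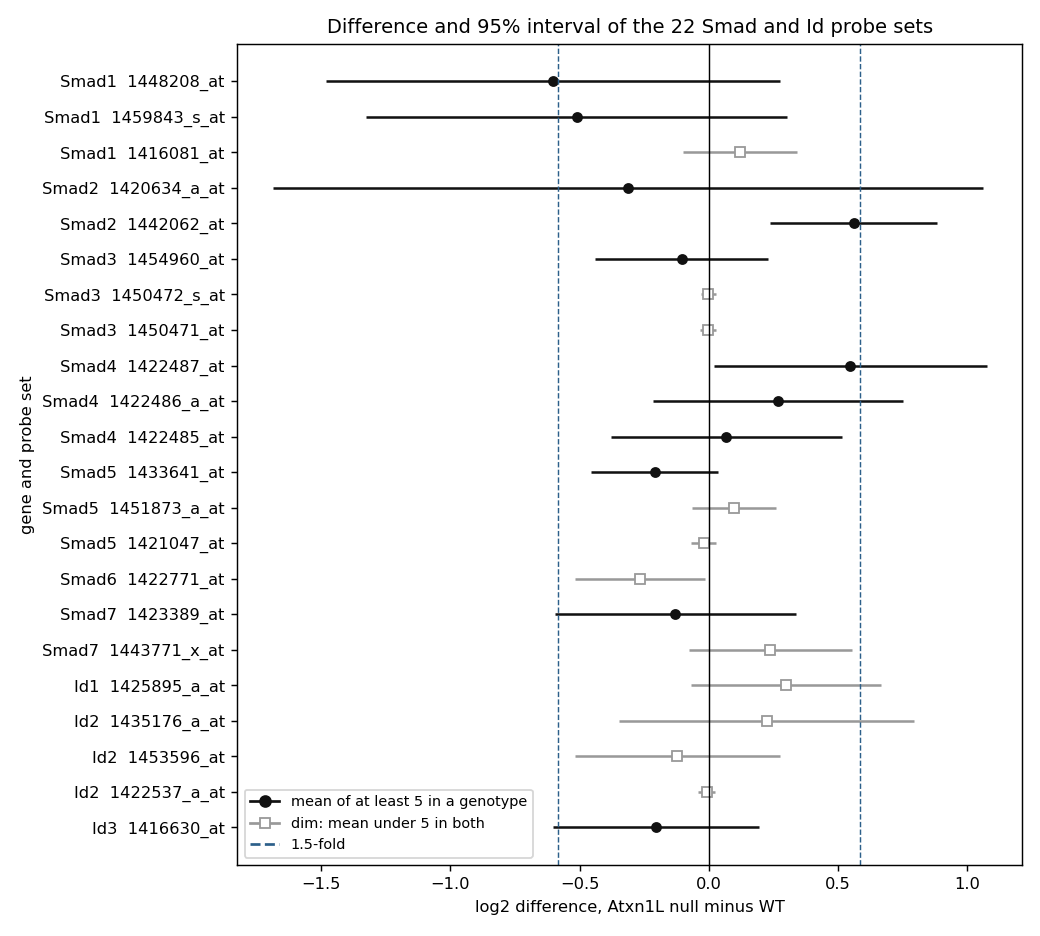
Log2 difference, Atxn1L null minus WT (horizontal axis), with limma's 95% interval for each Smad and Id probe set (vertical axis), filled circles for those not dim and open squares for dim ones, and dashed lines at a fold of 1.5. The intervals of Smad2 1442062_at and Smad4 1422487_at lie above 0, that of Smad6 lies below 0, and the other 19 include 0.

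Smad2 and Smad3, the transducers of TGFβ and activin, gave no common direction. Smad2 was read by a pair of probe sets that moved apart. On 1442062_at it read 5.39 and 5.70 in Atxn1L null pools, against 5.05, 4.93 and 4.97 in WT pools. Both null pools exceeded every WT pool, by 0.33 at the least, and the WT pools lay within a narrow band. The difference was 0.56 (95% interval 0.24 to 0.88; limma adjusted p = 0.557), a fold of 1.47 that stopped just short of the required size. With 1 pool left out in turn it ran from 0.40 to 0.72, and it passed the criterion without the first null pool (0.72) or the first WT pool (0.59) and not without any of the other 3.

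On the other Smad2 probe set, 1420634_a_at, the values were 7.64 and 8.64 in Atxn1L null pools and 8.84, 7.86 and 8.67 in WT pools. The genotypes overlapped widely, and the first null pool and the second WT pool were the low ones. Its difference was -0.31 with an interval of -1.69 to 1.06, the widest of the 22. The sign rested on a single pool, since the difference was 0.19 without the first null pool and -0.81 without the second.

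Smad3 was nearly the same in both genotypes. Its probe set with the highest mean, 1454960_at, read 11.17 and 11.20 in Atxn1L null pools and 11.49, 11.17 and 11.20 in WT pools. Only the first WT pool stood above the others. The difference was -0.10 (95% interval -0.44 to 0.23; limma adjusted p = 1), and without the first WT pool it was -0.003. The remaining Smad3 probe sets were dim, at 3.26 and 2.00 in null and 3.26 and 2.01 in WT pools on average, and showed no change beyond 0.003.

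Smad4, the common partner, had differences above 0 on all 3 of its probe sets, which share a design accession. On the probe set with the highest mean, 1422487_at, it averaged 9.28 ± 0.01 (SD, n = 2) in Atxn1L null and 8.74 ± 0.28 (SD, n = 3) in WT pools. The null pools read 9.28 and 9.29, against 8.74, 9.01 and 8.46 in WT pools. The null pools were almost equal and lay above every WT pool, while the WT pools were spread. The difference of 0.55 (95% interval 0.02 to 1.08; limma adjusted p = 0.862), a fold of 1.46, was below the required size. It ran from 0.41 to 0.69 with 1 pool left out in turn and passed the criterion only without the second WT pool.

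The other Smad4 probe sets differed less. On 1422486_a_at the values were 7.89 and 8.25 in Atxn1L null pools and 7.71, 7.68 and 8.01 in WT pools, a difference of 0.27 with an interval of -0.22 to 0.75. On 1422485_at they were 7.90 and 7.45 in null pools and 7.66, 7.65 and 7.53 in WT pools, a difference of 0.07 with an interval of -0.38 to 0.52 that was -0.16 without the first null pool. The genotypes overlapped on both, and on 1422485_at the null pools lay on either side of all WT pools.

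Smad1 and Smad5, the transducers of BMP signals, read lower in Atxn1L null pools on each probe set that was not dim, and no such difference passed the criterion. Smad1 on 1448208_at averaged 9.93 ± 0.51 (SD, n = 2) in null and 10.53 ± 0.30 (SD, n = 3) in WT pools. The null pools read 9.57 and 10.28, against 10.87, 10.33 and 10.39 in WT pools. The genotypes did not overlap, but the second null pool lay only 0.04 below the lowest WT pool, and the first null pool was far below all others. The difference was -0.60 (95% interval -1.48 to 0.28; limma adjusted p = 1), and 13.8% of all probe sets that were not dim differed by as much. It was -0.25 without the first null pool and -0.96 without the second.

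A second probe set of Smad1, 1459843_s_at, read 5.93 and 6.25 in Atxn1L null pools and 6.24, 6.53 and 7.03 in WT pools. The genotypes met at 1 point, where the second null pool read slightly above the first WT pool. The difference was -0.51, with an interval of -1.33 to 0.30. The remaining probe set, 1416081_at, was dim at 2.87 in null and 2.75 in WT pools on average.

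Smad5 on 1433641_at read 6.70 and 6.74 in Atxn1L null pools, against 7.03, 6.79 and 6.98 in WT pools. Both null pools lay below every WT pool, by 0.04 at the least. The difference was -0.21 (95% interval -0.46 to 0.04; limma adjusted p = 1), and it stayed between -0.28 and -0.16 with 1 pool left out in turn. The interval excluded a fall of 1.5-fold. The dim Smad5 probe sets averaged 4.17 and 2.06 in null and 4.07 and 2.08 in WT pools, with differences of 0.10 and -0.02.

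**Figure D3:**
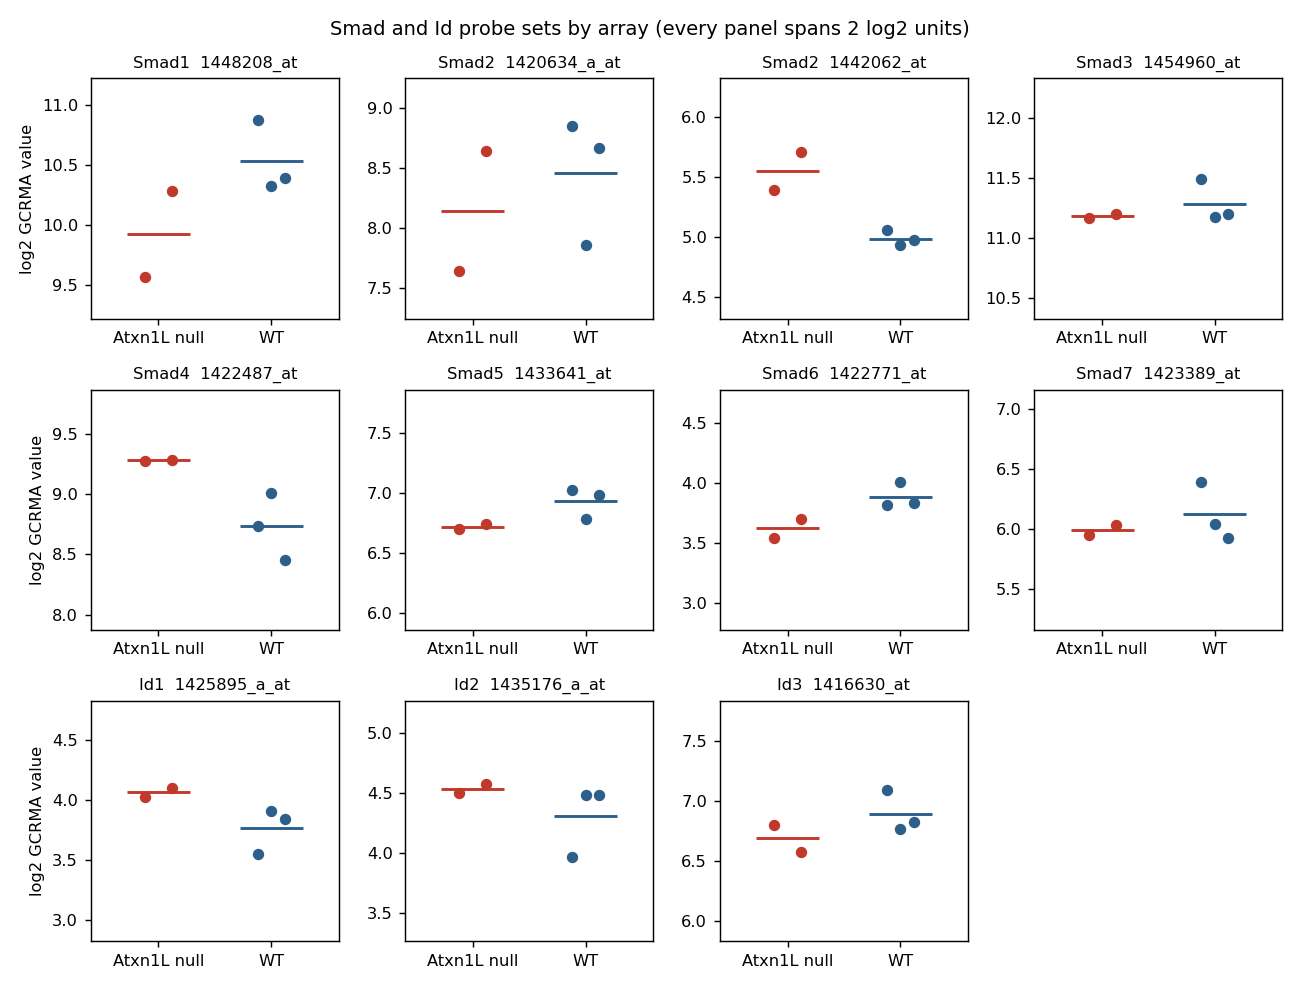
Log2 GCRMA values (vertical axis) of the 11 Smad and Id probe sets described by pool, with points for single arrays and bars for the genotype means, with Atxn1L null left of WT (horizontal axis). Both null points of Smad4 lie near 9.28, above the WT points, whereas those of Smad1 are apart at 9.57 and 10.28, and the first WT pool is the highest point for Smad3, Smad7 and Id3.

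The inhibitory Smads are themselves induced by the signal they restrain, Smad6 acting mainly on the BMP branch and Smad7 on both. Smad6 has 1 probe set, 1422771_at, which was dim. It read 3.54 and 3.70 in Atxn1L null pools, against 3.82, 4.01 and 3.83 in WT pools. The null pools lay below every WT pool by at least 0.12, a small distance on a dim probe set. The difference was -0.27 (95% interval -0.52 to -0.02; limma adjusted p = 0.844), a fold of 1.20. With 1 pool left out in turn it ran from -0.34 to -0.19.

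Smad7 on 1423389_at read 5.95 and 6.04 in Atxn1L null pools and 6.40, 6.05 and 5.93 in WT pools. The null values lay inside the WT range, and the first WT pool was the high one. Its difference of -0.13 (95% interval -0.60 to 0.34; limma adjusted p = 1) became 0.006 without the first WT pool. The other Smad7 probe set, 1443771_x_at, was dim, with 4.66 and 4.81 in null pools and 4.66, 4.37 and 4.45 in WT pools, a difference of 0.24 with an interval of -0.08 to 0.55.

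Smad6, Id2 and Id3 are the members known as BMP targets for which RefSeq's promoter table (GRCm38.p6) held an entry that could be shown. Their 250 bases before the start of the gene are given to show where the letters that Smads are known to bind stand in them. The sequences run 5′ to 3′ on the strand of the gene, Id3 at chr4:136143572-136143821 (plus strand), Id2 at chr12:25096093-25096342 (minus strand) and Smad6 at chr9:64022060-64022309 (minus strand). Capitals mark GTCT, the core of the Smad element, or its complement AGAC, and GGCGCC, a GC-rich palindrome that BMP Smads bind.
Id3: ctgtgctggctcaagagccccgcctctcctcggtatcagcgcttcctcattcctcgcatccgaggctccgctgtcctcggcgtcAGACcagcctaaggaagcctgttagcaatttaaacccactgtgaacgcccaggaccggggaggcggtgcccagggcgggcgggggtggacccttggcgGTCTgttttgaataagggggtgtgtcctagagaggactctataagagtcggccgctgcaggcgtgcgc
Id2: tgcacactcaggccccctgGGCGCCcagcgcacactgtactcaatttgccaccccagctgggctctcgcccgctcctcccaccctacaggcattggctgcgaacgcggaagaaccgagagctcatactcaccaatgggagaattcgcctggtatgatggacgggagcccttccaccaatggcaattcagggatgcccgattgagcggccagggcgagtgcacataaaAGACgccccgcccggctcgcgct
Smad6: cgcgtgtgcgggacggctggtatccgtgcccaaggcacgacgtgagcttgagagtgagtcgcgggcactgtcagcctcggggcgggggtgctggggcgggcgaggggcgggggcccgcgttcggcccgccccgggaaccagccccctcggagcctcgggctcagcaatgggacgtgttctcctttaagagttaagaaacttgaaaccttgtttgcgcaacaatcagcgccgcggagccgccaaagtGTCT

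The short core is common, so its presence distinguishes little. GTCT was found on either strand in 82.9% of all 32851 windows of this length and in 7 of the 8 windows of the 6 members with an entry, and GGCGCC in 9.59% of all windows and in 2 of the 8, which belong to Id2 and Smad5. The Id3 window holds GTCT or its complement 166 and 68 bases before the start, that of Id2 holds it 23 bases and GGCGCC 231 bases before the start, and that of Smad6 holds GTCT 4 bases before it. The palindrome GTCTAGAC was in none of the 8 and in 0.167% of all windows. A match is a description of letters and not a site shown to be bound.

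Of the Id genes, only Id3 was read by a probe set that was not dim, and it did not differ beyond the spread of the pools. Id3, whose promoter is shown above, read 6.80 and 6.57 in Atxn1L null pools, against 7.09, 6.76 and 6.82 in WT pools on 1416630_at. The first null pool lay within the WT range and the second below it. The difference was -0.21 (95% interval -0.60 to 0.19; limma adjusted p = 1), and leaving out 1 pool in turn moved it between -0.32 and -0.09.

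Id1, the Id gene most often used as a readout of BMP signaling, has 1 probe set, 1425895_a_at, which was dim. It read 4.03 and 4.10 in Atxn1L null pools, against 3.55, 3.91 and 3.84 in WT pools. Both null pools lay above the WT pools, by 0.12 at the least, opposite in direction to Id3. The difference was 0.30 (95% interval -0.07 to 0.66; limma adjusted p = 1), and without the first WT pool it was 0.19.

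Id2, which in blood is best known from innate lymphoid cells, was dim on all 3 probe sets. On 1435176_a_at it read 4.50 and 4.57 in Atxn1L null pools, against 3.97, 4.49 and 4.49 in WT pools. The null pools lay above the WT pools by 0.02, and the first WT pool alone was clearly lower. The difference was 0.22 (95% interval -0.35 to 0.80; limma adjusted p = 1), and without the first WT pool it was 0.05. The others averaged 2.96 and 2.59 in null and 3.09 and 2.60 in WT pools. Id1 and Smad6 are also expressed by endothelium. Of the endothelial genes, Cdh5 read 2.33 and 2.35 in null and 2.33 to 2.36 in WT pools. Emcn read 2.75 and 2.78 in null and 2.76 in WT pools, and Kdr 3.52 and 3.51 in null and 3.52 to 4.02 in WT pools. These were dim. Of the 8 endothelial and stromal markers only Pdgfrb was not dim, and none passed the criterion. Their summed linear signal was 264 and 547 in null and 180 to 312 in WT pools. Pdgfrb, at 7.71 and 8.94 in null and 6.90 to 8.00 in WT pools, was the largest part of that sum. The sum therefore does not describe the endothelial genes.

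Around the members, 80 genes of the pathway were grouped into 5 lists by role and each read by its brightest probe set (the highest mean over the 5 arrays). Of the 78 measured, 3 were higher and 1 was lower in Atxn1L null HSCs at the criterion, where 3.00% of all genes passed in either direction. Of the 3, Tgfbi had already been named by the study as upregulated in these HSCs, so its call was known beforehand. The median difference of the 78 was -0.003, beside -0.002 for all genes. It was -0.17 for the 10 members read in the same way, of which 3 were above 0. Without the second null pool 7 of the 78 passed, and without WT pool 3 only 2 passed.

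**Figure D4:**
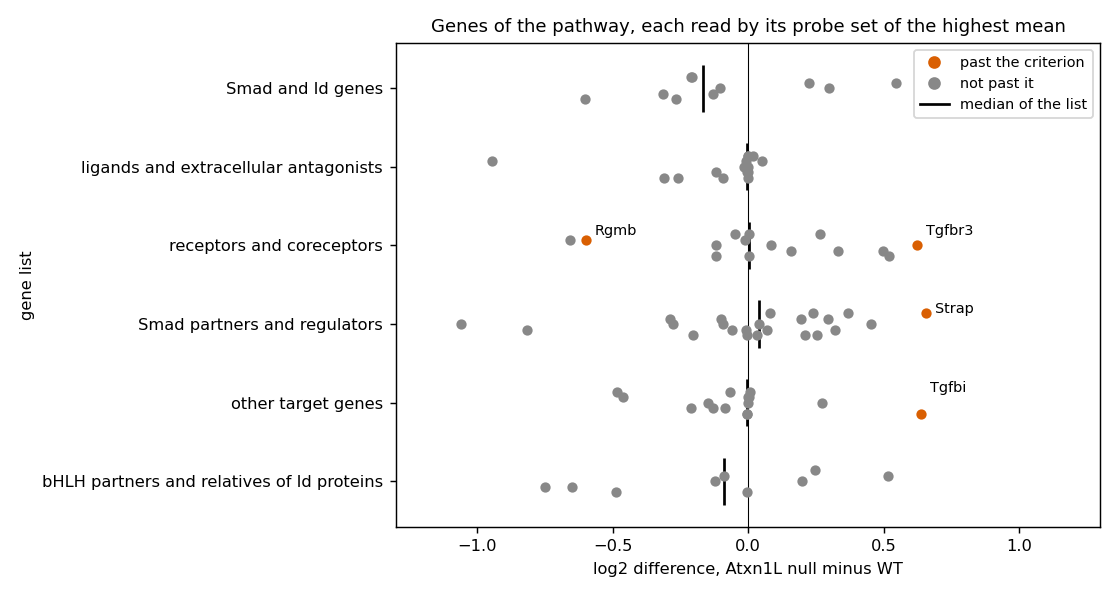
Log2 difference, Atxn1L null minus WT (horizontal axis), of each gene in the Smad and Id group and in 5 lists of the pathway (vertical axis), with a bar at the median of each list. Tgfbr3, Strap and Tgfbi lie to the right and Rgmb to the left as the genes past the criterion, and no Smad or Id gene is among them.

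Of 16 measured ligands and extracellular antagonists none passed, and 2 were not dim. Inhba, a subunit of activin, read 6.80 and 7.42 in Atxn1L null pools and 7.21, 8.04 and 8.90 in WT pools, with a difference of -0.94 (limma adjusted p = 1). Ltbp3, which holds latent TGFβ in the matrix, averaged 12.82 in null and 13.08 in WT pools. Tgfb1, the main ligand made by blood cells, was dim in these arrays.

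Of 15 receptors and coreceptors 1 was higher and 1 lower. Each was called on 1 probe set only, of 2 for Tgfbr3 and of 6 for Rgmb. The uncalled ones were dim and differed by -0.005 for Tgfbr3 and by -0.023 to 0.006 for Rgmb. Tgfbr3, a coreceptor that presents TGFβ, read 9.02 and 9.27 in Atxn1L null pools, against 8.66, 8.55 and 8.37 in WT pools, a rise of 0.62 (limma adjusted p = 0.569) whose call ended without null pool 2 or WT pool 3. Rgmb, a BMP coreceptor, fell by 0.60 on a dim probe set (adjusted p = 0.850), a call that was kept only without the first WT pool. The signaling receptors Tgfbr1 and Tgfbr2, chosen after their values were seen, differed by 0.52 and 0.50 and did not reach the fold. The largest difference of the 15 went the other way, at -0.66 for Acvr1, which reached the fold and was not called. Acvr1 read 4.38 and 5.46 in null pools, against 5.46, 5.70 and 5.57 in WT pools. The median difference of the 15 was 0.004, with 9 above 0.

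Of 23 Smad partners and regulators only Strap passed. Strap binds the type I receptor and Smad7, and it read 10.22 and 10.27 in Atxn1L null pools, against 9.66, 9.49 and 9.61 in WT pools. The rise of 0.66 (standard error 0.06; limma adjusted p = 0.312) held without any 1 pool. The called Strap probe set ends in _s_at, a kind left out as cross-hybridising in a setting below, in which the pathway lists were not counted. The part of cross-hybridisation in the Strap call was not tested. A second probe set of Strap differed by 0.58 and the last by 0.05, neither called. On dimmer probe sets than the ones read here, and named after their values were seen, Smurf2, an E3 ligase for Smads, was higher by 0.80, while Crebbp, a coactivator of Smads, fell by 0.98 and Ppm1a, a phosphatase of Smads, fell by 1.16. On their probe sets with the highest mean these 3 genes differed by -0.09, -0.28 and -0.29, so each call rests on 1 probe set. The call of Smurf2 ended without null pool 2, WT pool 1 or WT pool 3, that of Crebbp without either null pool, and that of Ppm1a without either null pool or WT pool 3.

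Of 15 further target genes Tgfbi alone passed, a matrix protein induced by TGFβ, with 10.02 and 10.21 in Atxn1L null pools against 9.41, 9.47 and 9.56 in WT pools. The call on this probe set ended without the second null pool, when the rise was 0.54. Of the 4 Tgfbi probe sets 3 were called, and of the other called ones the brighter stayed called with any 1 pool left out, at 0.69 to 0.83, while the dimmer lost its call only without the first null pool, at 0.50. All 3 called Tgfbi probe sets end in _s_at or _x_at, the kind left out as cross-hybridising in a setting below. The pathway lists were not counted in that setting. The remaining Tgfbi probe set was dim and averaged 4.25 in null and 4.32 in WT pools, a difference of -0.07. The part of cross-hybridisation in the Tgfbi calls was not tested. Of 9 partners and relatives of the Id proteins none passed. Tal1, a helix-loop-helix factor of HSCs that pairs with E proteins, averaged 10.10 in null and 9.85 in WT pools. Lyl1, its close relative, read 7.72 and 8.21 in null pools and 8.32, 8.38 and 9.14 in WT pools, a difference of -0.65 (limma adjusted p = 1). Smad9, the remaining BMP Smad, and Id4, the remaining Id gene, were dim, at 2.50 and 3.20 in null and 2.50 and 3.68 in WT pools on the brightest probe set of each.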

How the data were processed

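Expression was measured on 5 arrays of pooled HSCs, 2 Atxn1L null and 3 WT, grouped by the genotype in the labels. GCRMA had been run by the authors on the scanned intensities (no version is stated in the sources used here), and they deposited 1 value per probe set, read here as log2 from its range, since the base is not stated. Array medians ran from 3.03 to 3.07. GCRMA shrinks dim signals toward a floor, which narrows their differences. The number of arrays limits the precision.

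After 64 control probe sets had been left out, all 45037 others were fitted without a filter, with a mean per genotype, by lmFit and eBayes of limma 3.58.1 in R 4.3.3, which was checked on simulated data. The moderated variance had 3.77 degrees of freedom, and 95% intervals are limma's. The criterion (unadjusted p up to 0.05, fold from 1.5 upward) and the use of limma follow the study's methods and text. Benjamini-Hochberg adjustment ran over all probe sets. P-values measure only the spread between these pools, and an exact test of 2 against 3 could not go below 0.1.

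Values by pool are given for each member's probe set of the highest mean and for those separated between genotypes with a mean of at least 5 in a genotype, and, beyond that rule, for other probe sets of Smad1, Smad4 and Smad7. Genes of the pathway lists are named where called, up to 4 a direction, or else the 2 with the highest mean. Marker lists covered HSCs, progenitors, erythroid, megakaryocytic, granulocytic, B, T and NK, mast and endothelial or stromal cells. Members and lists were chosen with earlier results of these data known. Sequences are from RefSeq, GRCm38.p6, and those of some members are not reported here.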

Additional observations from a re-analysis of the deposited data

How the results depend on the processing

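No Smad or Id probe set was called with a variance trend, renewed quantile normalization, median centring, without dim or cross-hybridising probe sets, or with each gene represented by its brightest probe set or by the average of all of them. In the last of these the lowest limma adjusted p of a member was 0.262, for Smad4 with a difference of 0.29. With array weights, whose estimate did not reach its tolerance, 1 was called (Smad2, 0.61). Smad4 on 1422487_at was 0.27, Smad5 on 1433641_at -0.06, Smad1 on 1448208_at -0.40 and Smad7 on 1423389_at -0.05, none called. Id1 was 0.16, Id2 on 1435176_a_at 0.05 and Id3 -0.08, while Smad6 moved away from 0, to -0.39, and these were not called either. With p alone 3 were called, and with 1 pool left out 0 to 1 (Smad2 or Smad4). Over all probe sets, 1074 calls became 546 with 1 probe set per gene, 257 with averaged ones, 2517 by p alone, 1 by adjusted p and 709 (without the first WT pool) to 1948 (without the second null pool) with 1 pool left out. The pathway lists ran from 2 to 7 calls likewise. The counts of 546 and 257 are out of 18193 genes, while 1074 is out of 45037 probe sets, so they cannot be compared directly. What else caused these shifts was not tested.

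Among the 11 probe sets followed singly, signs turned for 3, none of them called with all 5 arrays. The probe sets of Smad6, Id1 and Id2 had no value in the setting without dim ones. No probe set was followed singly in the settings by gene. Among the other members, the sign of Smad4 on 1422485_at turned with 1 pool left out (-0.16 to 0.29). Smad2 on 1420634_a_at was 0.29 with array weights and ran from -0.81 to 0.19 with 1 pool left out, Smad3 on 1454960_at was 0.0086 with array weights, and Smad7 on 1423389_at ran from -0.23 to 0.0061 with 1 pool left out. Array number 1 of null and WT correlated at -0.033 in their deviations from the genotype means over probe sets, and number 2 at -0.257. With 2 null arrays the null deviations mirror each other, so these values are not independent and cannot decide on a pairing. The highest correlation was 0.257, between null pool 1 and WT pool 2. With the array numbers as a replicate block, 762 probe sets and 0 of the 22 members were called. WT pool 3 has no null array of its number, so the differences in this setting equal those without WT pool 3. They were -0.67 for Smad1 on 1448208_at and 0.41 for Smad4 on 1422487_at in both. The block is therefore not a separate check on the differences. At 5 arrays, the intervals of Smad1 on 1448208_at and Smad4 on 1422487_at do not exclude a fold of 2, while that of Smad5 on 1433641_at excludes 1.5.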

Other observations

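The first WT pool read highest of the WT pools on 8 of the 11 Smad and Id probe sets that were not dim (72.7%), where it did so on 32.3% of all such probe sets. It was also the lowest of the 5 pools on Id1 (3.55) and on the Id2 probe set with the highest mean (3.97). This was noticed after the values were seen, the probe sets share their genes and their arrays, and no test was made of it.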
